A study of Mastomys natalensis with 4 samples.

Results

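Solute carriers are the membrane proteins, grouped in numbered Slc families, that move nutrients, ions, metals and metabolites across the cell surface and the membranes of organelles. They were taken here as every probe set of a mouse expression array whose only gene symbol in the platform annotation begins with Slc and a family number. This gave 151 genes in 40 families, out of 8251 genes named by a single symbol, on 185 of the 12488 probe sets of the array. RNA came from the stomach lining of the rodent Mastomys natalensis and was hybridised to Affymetrix mouse U74 arrays. All 4 samples came from animals given loxtidine (loxitidine in the labels), a histamine H2 receptor blocker that suppresses acid secretion. They formed 2 groups of 2 samples: 8 weeks of drug, labelled as hyperplasia of enterochromaffin-like (ECL) cells, and 16 weeks, labelled as neoplasia of these cells. ECL cells are the histamine-releasing endocrine cells of the acid-secreting mucosa. The labels used here give no age, sex or strain and do not say whether a sample was 1 animal or a pool. No untreated sample was used here, and the comparison is of the later with the earlier stage, with time on drug and lesion stage changing together. The labelled tissue carried its markers: the proton pump subunit Atp4a read between 4034 and 5304 on the 4 arrays and the ECL and endocrine marker chromogranin A (Chga) between 141 and 299 on its brighter probe set, while histidine decarboxylase (Hdc), the defining ECL enzyme, lay below the floor on all 4 arrays.

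In the stomach, carriers work beside the pumps and channels of acid secretion. Parietal cells export bicarbonate at their base while protons leave at the apex, fluid-secreting cells load chloride with cation-chloride cotransporters, and endocrine cells fill their granules through vesicular carriers. The largest family, Slc25 with 24 probe sets here, sits in the inner mitochondrial membrane and exchanges nucleotides, phosphate and metabolic acids. Families Slc35 and Slc37 serve the endoplasmic reticulum (ER) and Golgi, and Slc30, Slc31 and Slc39 handle zinc and copper.

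No solute carrier differed between 16 and 8 weeks at the threshold of 0.05 once p-values were adjusted by Benjamini-Hochberg across the 7883 probe sets tested. Limma called 0% of them as higher and 0% as lower, and the smallest adjusted p of a carrier was 0.301. A total of 128 of the 185 carrier probe sets, for 113 genes in 35 families, exceeded the floor of 12.15 intensity units on at least 2 arrays and were tested. Of these, 10 had an unadjusted p under 0.05 with both 16-week samples above both 8-week samples, against 8.08% of all tested probe sets, and 5 had it with both below, against 5.87%. These counts of 10 and 5 are 7.81% and 3.91% of the carriers, so neither share lay above its background. By non-overlap of the groups alone, 41 carriers (32%) lay higher and 12 (9.38%) lower, where the shares over all tested probe sets were 28.7% and 20.6%. Without 8-week sample 1 the median log2 difference was 0.14 for carriers, beside -0.01 for all tested probe sets. Without 16-week sample 2 these medians were 0.19 and 0.10. For single probe sets the smallest 2-sided p of an exact permutation over 2 against 2 samples is 0.333. Separate animals are not named in the labels, and what the p-values weigh is therefore sample-to-sample spread that could be technical.

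By sign, 87 tested carriers (68%, beside 56.3% of all tested probe sets) were higher at 16 weeks and 41 lower. Their median log2 difference was 0.17 beside 0.09 over all tested probe sets. The split by sign depended on how the arrays were scaled. It was 64 against 64 (50% higher, beside 42% of all tested probe sets) with the arrays on a common median. There the median over all probe sets was -0.11 and that of the carriers -0.0033. Alignment on the spiked bacterial controls of the hybridisation was an alternative chosen after seeing the data. It gave 87.5% of carriers higher, beside 80.9% of all tested probe sets, with medians of 0.46 for all probe sets and 0.56 for carriers. The split also moved with the filter, since 10 tested carriers had both 8-week samples under the floor and could only differ upwards, against 1 with both 16-week samples under it. Among the 90 carriers above the floor on all 4 arrays 54 were higher (60%, beside 52.2% of all such probe sets) and 36 lower. Their median was 0.11 beside 0.03 for all such probe sets. For the counts by sign of each role below, the background is the 56.3% of all tested probe sets.

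Carriers were dim on this array. Their median intensity, over tested probe sets, was 26.9 beside 35 for all. Mouse probes on RNA of another genus lose signal unequally from gene to gene, and brightness is therefore not a transcript level. When all tested probe sets were divided by brightness into 3 equal classes, at 23 and 56.2 intensity units, 50 carriers fell in the dim class, 42 in the middle and 36 in the bright class. In the dim class 42 of 50 carriers were higher at 16 weeks (84%, beside 66.4% of all probe sets of that class). The bright class had 19 of 36 carriers higher (52.8%, beside 43.5%) and 8 of 36 lower without overlap (22.2%, beside 32%). The direction of carriers therefore followed brightness in the same order as that of other probe sets, from mostly higher among dim ones to an even split among bright ones. Fewer probe sets lay above the floor on the 8-week arrays (55.3% and 57.9%) than on the 16-week arrays (62.4% and 62.3%). For carriers these shares were 56.2% and 60.5% against 71.4% and 66.5%. The part of this array-wide difference in the upward lean of dim carriers was not tested.

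**Figure D1:**
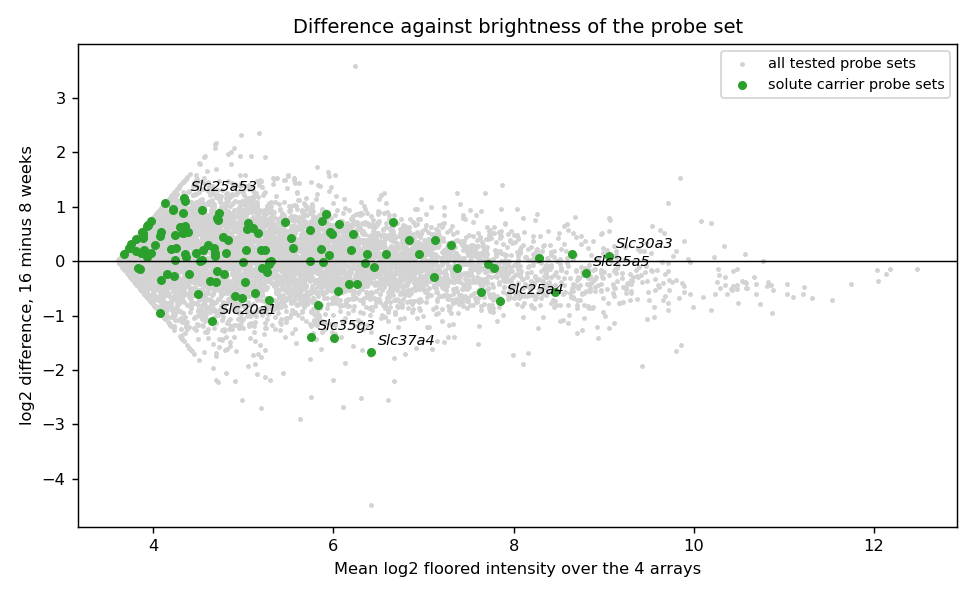
Mean log2 intensity over the 4 arrays (x axis) against the log2 difference between 16 and 8 weeks (y axis) for the 7883 tested probe sets (grey) and the 128 carriers (green). Dim carriers on the left lie mostly above 0, and Slc37a4 at -1.67 is the lowest carrier; the wedge at the left edge comes from the floor.

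Single samples were also set against each other. For carriers the median absolute log2 difference was 0.39 between the 8-week samples and 0.37 between the 16-week samples, and over the 4 pairs of a 16-week with an 8-week sample it ran from 0.35 to 0.54. Over all tested probe sets it was 0.32 within each group and ran from 0.35 to 0.48 across groups. The pairs with 8-week sample 1 gave the wider differences in both sets.

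**Figure D2:**
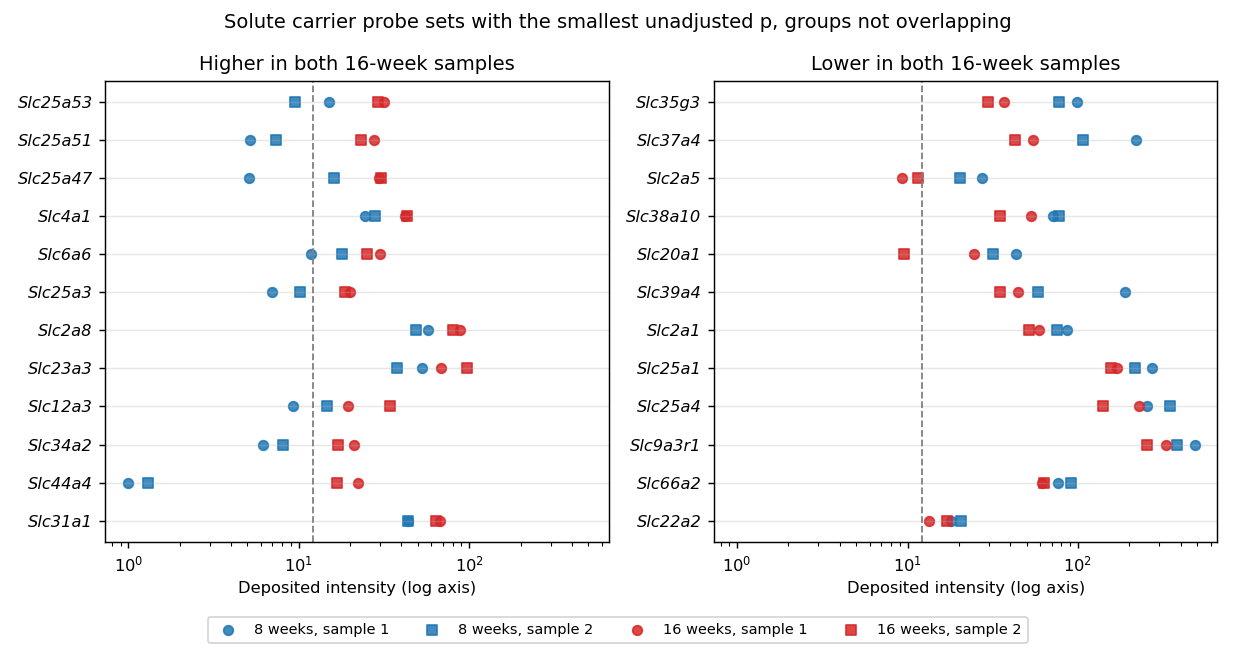
Deposited intensity (log axis) in each of the 4 samples for the 12 carrier probe sets with the smallest unadjusted p on each side whose groups did not overlap; the dashed line is the floor of 12.15. Most of the probe sets in the left panel cross the floor, while 10 of the 12 in the right panel lie above it in all samples.

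The 24 probe sets plotted by sample, 12 on each side, differed in how well they were measured. Of the 12 higher at 16 weeks, 4 were above the floor in all samples, 4 were under it in both 8-week samples and 4 in 1 of these samples. Of the 12 lower, 10 were above the floor in all samples. All 24 kept their sign under quantile normalization and on a common median, but their choice by non-overlap and smallest p favours a kept sign. With a sample left out the sign could not change, because these 24 were picked for groups that did not overlap. Aligned on the hybridisation controls the 12 higher ones kept it, and 11 of the 12 lower ones. That alignment raised differences across the array, to a median of 0.46 over all tested probe sets, so the higher ones could hardly turn.

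Carriers of the ER and Golgi membranes held the lowest difference of the set, that of Slc37a4. This glucose-6-phosphate transporter of the ER, which feeds the last step of glucose release, read 218 and 107 at the earlier stage and 54.3 and 42.5 at the later. Both 16-week samples lay under both 8-week samples, and 8-week sample 1 stood above the other 3. The log2 difference was -1.67 ± 0.41 (SE, n = 2 per group; limma adjusted p = 0.309), and it was -1.15 without 8-week sample 1. Slc35g3, an orphan of the nucleotide sugar transporter family, read 99 and 77.1 against 37 and 29.7. The groups were well apart and the samples within each close, and the difference was -1.40 ± 0.27 (limma adjusted p = 0.301, the smallest of any carrier). The other 7 tested probe sets of this role lay between -0.05 and 0.60. Slc35b1, which brings ATP into the ER and was the brightest of the Slc35 family, read 171 and 267 against 189 and 226 (-0.05 ± 0.32), and the orphan Slc35e1 read 19.9 and 36.2 against 46.9 and 35.1 (0.60 ± 0.38). The role as a whole had 6 probe sets higher and 3 lower, with a median of 0.25, so the 2 low members stood apart from the rest of their role.

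Sugar carriers, grouped by family number, had 5 of 9 tested probe sets lower and 4 higher, with a median of -0.37. The 9 include Slc5a6 (-0.38 ± 0.32), a multivitamin transporter of family 5. Without it, a choice made after seeing the data, 4 were lower and 4 higher and the median was -0.15. The fructose transporter Slc2a5, typical of small intestine, read 27.3 and 20.3 at 8 weeks and was under the floor in both 16-week samples, at 9.3 and 11.6. It was therefore at least 1.94-fold lower (limma adjusted p = 0.320). The widespread basal glucose transporter Slc2a1 read 85.7 and 75.1 against 58.7 and 51.3, with no overlap and a difference of -0.55 ± 0.24. Slc2a8, a hexose transporter of intracellular membranes, lay the other way, from 57 and 48.8 to 88.6 and 80 (0.67 ± 0.24). It was 1 of the 4 leading higher carriers that were measured above the floor in every sample. The high-affinity glucose transporter Slc2a3 read 30 and 25.9 against 27.6 and 12.2 on its brighter probe set (-0.60 ± 0.44) and gave 0.15 ± 0.58 on the other. The insulin-responsive Slc2a4 reached 20.7 at most on its tested probe set (0.11 ± 0.38). The sodium-glucose cotransporter Slc5a1 of enterocytes and the liver and beta-cell transporter Slc2a2 were not tested: Slc5a1 read 10.7 and 8 against 2.2 and 1.9, all under the floor.

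Intestinal markers were lower along with several of these carriers. All 5 tested genes of an enterocyte and goblet cell list were lower at 16 weeks, their summed intensity was 1102 and 216 at 8 weeks but 133 and 146 later, and a sixth, Fabp2, did not reach the filter. A hepatocyte list had sums of 409 and 118 against 126 and 126, carried in 8-week sample 1 by Apoa1 (267) and Alb (75.8), with 3 of 5 tested genes lower at 16 weeks and Apoa2 and Ttr higher. Pancreatic acinar markers were uneven within both groups, at 3465 and 747 against 2038 and 6497, with all 4 tested genes higher at 16 weeks. Squamous markers summed to 443 and 363 against 199 and 983, with 2 of 4 tested genes higher. Carriers were searched for a sample at least 2-fold above each of the other 3. In 8-week sample 1, 3 of 185 stood out (1.62%, beside 0.741% of probe sets in all). In 16-week sample 2 it was 1 (0.541%, beside 0.934%). No carrier stood out in 8-week sample 2 or 16-week sample 1, beside 0.362% and 0.644% of probe sets in all. Those of 8-week sample 1 were Slc37a4, the intestinal zinc importer Slc39a4 and the very long chain fatty acid transporter and CoA ligase Slc27a2 (named after its values were seen). Slc27a2 had 37.1 there but 3.2 in 8-week sample 2 and 2.9 and 3.3 at 16 weeks, and was not tested. In a bulk sample fewer cells of a type and less RNA per cell cannot be told apart, and the part of intestinal, liver-type, acinar or squamous cells in the lower values of Slc37a4, Slc2a5 and Slc39a4 was not tested.

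Metal ion carriers were led by that zinc importer and by a copper importer. On its dimmer probe set Slc39a4 read 189 and 58.3 at 8 weeks against 44.6 and 35, a difference of -1.41 ± 0.59, and of -0.56 without 8-week sample 1. Its other, brighter probe set read 424 and 342 against 411 and 429 (0.14 ± 0.25), so the probe sets of this gene gave opposite signs. The copper importer Slc31a1 read 44 and 43.7 against 67 and 63.6. The samples of each group were close, and the difference was 0.57 ± 0.23 (limma adjusted p = 0.364). Its other probe set gave a like value with wider spread, 12.5 and 20.1 against 19.5 and 30.5 (0.62 ± 0.37), where the groups overlapped. The vesicular zinc transporter Slc30a3 had the brightest carrier probe set on the array, at 457 and 576 against 552 and 549 (0.10 ± 0.25). The proton-coupled iron importer Slc11a2 read 87.9 and 77.7 against 75.4 and 86.5 (-0.03 ± 0.24) on the brighter of its probe sets and 0.12 ± 0.55 on the other. Zinc importer Slc39a1 gave 0.21 on each of its probe sets, with SE of 0.25 and 0.29, and the Golgi zinc transporter Slc30a5 gave 0.20 ± 0.31 and -0.12 ± 0.31 on dim probe sets. In all 11 of the 15 tested probe sets of metal carriers (73.3%, beside 56.3% of all tested probe sets) were higher and 4 lower. Their median was 0.20, and none had an unadjusted p under 0.05 in limma.

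**Figure D3:**
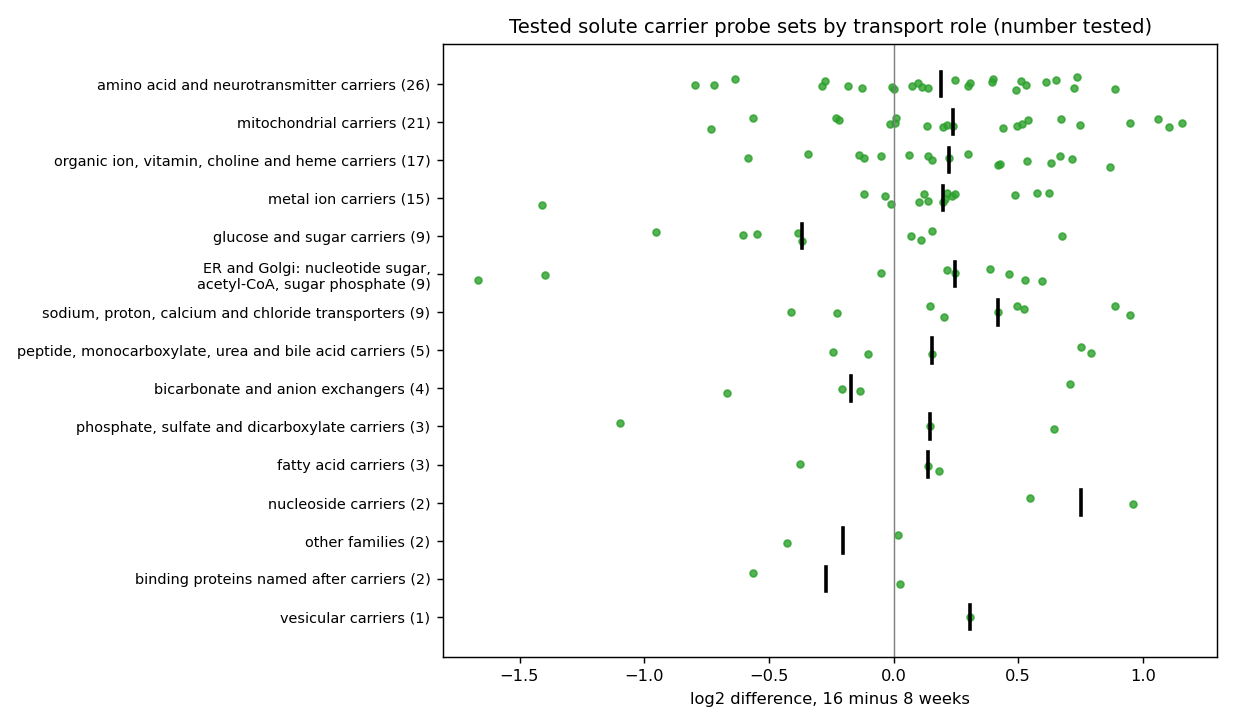
Log2 difference between 16 and 8 weeks (x axis) of every tested carrier probe set by transport role, with the number tested in brackets; black bars are medians. Medians run from -0.37 for sugar carriers to 0.75 for the 2 nucleoside carrier probe sets, and every role with over 4 probe sets holds both signs. Roles follow family numbers, so Slc5a6 counts as a sugar carrier (median -0.15 without it) and Slc17a1 as vesicular.

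Mitochondrial carriers, the largest family, were mostly higher among dim probe sets. Of 21 tested probe sets 16 were higher and 5 lower, with a median of 0.24, and 10 lay higher without overlap (47.6%, beside 28.7% of all tested probe sets) against 2 lower (9.52%, beside 20.6%). The 4 with an unadjusted p under 0.05 were all higher and all dim (19%, beside 8.08%). Of the 10, 3 had both 8-week samples under the floor and could only come out higher, as did 2 of the 4, so these counts support nothing about the family. Slc25a53, an orphan of the family, read 15.1 and 9.5 against 31.5 and 29 (1.16 ± 0.25, limma adjusted p = 0.309, with the 9.5 raised to the floor). Slc25a51, which imports NAD into mitochondria, was under the floor in both 8-week samples at 5.2 and 7.4 and read 27.6 and 23.3 at 16 weeks, at least 2.09-fold higher. Its other probe set read 6.2 and 8.6 against 22.6 and 13.8, at least 1.45-fold higher. Both probe sets passed the filter through the 16-week samples alone, which fixed their direction. Slc25a47, described mainly in liver, read 5.1 and 16 against 29.5 and 30.5 (1.11 ± 0.26, with the 5.1 raised to the floor). Slc25a3, which carries phosphate for ATP synthesis, was under the floor at 8 weeks (7 and 10.1) and read 20.1 and 18.6, at least 1.59-fold higher. Its probe set was dim throughout.

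The 8 bright mitochondrial probe sets were 4 higher and 4 lower. The citrate carrier Slc25a1, which exports citrate for fatty acid synthesis, read 271 and 216 at 8 weeks against 170 and 157 (-0.56 ± 0.25). The ADP/ATP exchanger Slc25a4 of muscle and heart read 254 and 347 against 228 and 140 (-0.73 ± 0.35). In both genes the groups did not overlap, and in neither was limma's unadjusted p under 0.05. A list of smooth muscle markers, whose cells express Slc25a4, had 6 of 7 tested genes lower, with a summed intensity of 3332 and 2864 at 8 weeks against 1747 and 1677, while Acta2 did not reach the filter; the part of muscle in the value of Slc25a4 was not tested. Slc25a5, the ADP/ATP exchanger of most tissues and near-identical in sequence to Slc25a4, read 432 and 537 against 393 and 436 on a probe set shared between similar sequences (-0.22 ± 0.25) and -0.02 ± 0.25 on another. A dimmer probe set of Slc25a1 had the opposite sign, at 56.2 and 50.7 against 64.3 and 87.9 (0.49 ± 0.27), again without overlap. Slc25a28, a mitochondrial iron importer named after its values were seen, read 29.9 and 68.4 against 78.4 and 73.4 (0.75 ± 0.44), lowest in 8-week sample 1.

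Carriers of bicarbonate, protons and chloride, the ions of gastric secretion, were thinly covered. Slc9a2, Slc9a3, Slc9a4, Slc26a3, Slc26a6, Slc26a7 and Slc26a9 were not analysed here, nor were the vesicular monoamine transporters Slc18a1 and Slc18a2 that load ECL cell granules, the iodide transporter Slc5a5, the peptide transporter Slc15a1 and the iron exporter Slc40a1. The anion exchanger Slc4a2, by which parietal cells release bicarbonate into the blood, read 174 and 307 at the earlier stage and 216 and 206 at the later. The 16-week samples lay between the 8-week samples, and the difference was -0.13 ± 0.35. Of the proton pump it serves, the catalytic subunit Atp4a gave -0.13 ± 0.26, while the other subunit, Atp4b, read 1091 and 1701 against 915 and 634 (-0.84 ± 0.35), lower in both 16-week samples. The sodium bicarbonate cotransporter Slc4a4 read 54.5 and 29.4 against 33.9 and 18.7 (-0.67 ± 0.45), and the exchanger Slc4a3 of heart and brain 40.1 and 42.4 against 54.5 and 23.4 (-0.21 ± 0.45). Neither separated the groups. Slc4a1, the red blood cell form of the exchanger, read 24.3 and 27.9 against 42.1 and 43 (0.71 ± 0.24, limma adjusted p = 0.338). The other red cell genes tested overlapped between the groups: alpha globin (Hba-a1) read 79.1 and 111 against 80.9 and 60.9, and the heme synthesis enzyme Alas2 32 and 14.9 against 8.9 and 29.7.

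Cation-chloride cotransporters were higher in 5 of 6 tested probe sets (83.3%, beside 56.3% of all tested probe sets), most of them dim. Only 2 of the 6 were higher without overlap (33.3%, beside 28.7%). The basolateral cotransporter Slc12a2, which loads chloride for secretion, was the exception, at 72.3 and 108 against 72.7 and 60.6 (-0.41 ± 0.30, with overlap). Kidney-type forms were higher near the floor: the thiazide-sensitive Slc12a3 read 9.2 and 14.7 against 19.5 and 34.1 (0.95 ± 0.35), and the loop-diuretic-sensitive Slc12a1 12.5 and 11.9 against 16.5 and 19 (0.52 ± 0.24). The potassium-chloride cotransporter Slc12a7 read 13.4 and 11.9 against 24 and 11.2 (0.42 ± 0.39), with overlap and 1 sample of each group under the floor. The Golgi sodium-proton exchanger Slc9a8 read 57.2 and 68.8 against 96.7 and 80.7 (0.49 ± 0.26, without overlap), all above the floor. Slc9a3r1 and Slc9a3r2 carry Slc names but are scaffold proteins that hold exchangers at the apical membrane. The bright Slc9a3r1 read 483 and 381 against 329 and 255, lower in both 16-week samples (-0.57 ± 0.28), and Slc9a3r2 gave 0.02 ± 0.32. Leaving out these binding proteins moved the carriers' median from 0.17 to 0.19.

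Amino acid and neurotransmitter carriers, 26 tested probe sets, were higher in 18 (69.2%, beside 56.3% of all tested probe sets) and lower in 8. Their median was 0.19. The taurine transporter Slc6a6 read 11.8 and 18 against 29.8 and 25.1 on a dim probe set (0.89 ± 0.30), while its bright probe set read 160.1 and 146 against 148 and 106 (-0.29 ± 0.28), so the direction of this gene was not settled. Slc38a10, a glutamine and glutamate transporter, was the lowest of the role, at 71.8 and 77.6 against 53.1 and 34.8 (-0.80 ± 0.30). The arginine and lysine transporter Slc7a2 had tight replicates, 48.4 and 55.3 against 73.3 and 76.3, and differed by 0.53 ± 0.24. The large neutral amino acid transporter Slc7a5 and the heavy chain Slc3a2 that brings it to the membrane were both lowest in 8-week sample 1. That array also had the lowest median intensity over all probe sets, at 15.45. Slc7a5 read 80.1 and 124 against 132 and 130.2 (0.40 ± 0.30), and Slc3a2 114 and 177 against 189 and 163 (0.31 ± 0.31). Slc7a8, another partner of Slc3a2, gave -0.28 ± 0.44. The serotonin transporter Slc6a4 read 30.9 and 29.1 against 34.2 and 53.4 on a shared probe set (0.51 ± 0.31) and was under the floor on the other. The noradrenaline transporter Slc6a2 of sympathetic nerves gave 0.49 ± 0.28 and -0.01 ± 0.68 on its probe sets. The glutamate transporter Slc1a1 did not exceed 5.4 in any sample on either of its probe sets.

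Carriers of vitamins, choline and organic ions were higher in 12 of 17 tested probe sets (70.6%, beside 56.3% of all tested probe sets). Their median was 0.22. Slc23a3, an orphan related to the vitamin C transporters, had both probe sets on the same side. The first read 52.6 and 37.8 against 67.9 and 97.6 (0.87 ± 0.32) and the other 63.8 and 97.6 against 119 and 141 (0.72 ± 0.31). In each, both 16-week samples were above both 8-week samples and all values were above the floor. The reduced folate carrier Slc19a1 read 16.1 and 16.5 against 22.2 and 28.7 (0.63 ± 0.26) but -0.05 ± 0.36 on a brighter, shared probe set. Slc44a4, of the choline transporter-like family, showed how far probe sets of a gene can part: a reduced probe set read 1 and 1.3 against 22.2 and 16.8, at least 1.59-fold higher, while the bright one read 276 and 337 against 337 and 301 (0.06 ± 0.25). Its relative Slc44a1, a choline transporter, read 204 and 147 against 225 and 113 (-0.12 ± 0.41), differing more within each group than between them. The renal organic cation transporter Slc22a2 was near the floor, at 17.9 and 20.5 against 13.4 and 17 (-0.34 ± 0.26).

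The small roles each rested on 1 to 5 tested probe sets. Phosphate carriers went apart. Slc20a1, the housekeeping sodium-phosphate cotransporter, read 43.1 and 31.6 against 24.5 and 9.6 (-1.10 ± 0.42), a difference of -0.59 without 16-week sample 2, which lay under the floor. The epithelial cotransporter Slc34a2 was under the floor at 8 weeks (6.2 and 8.1) and read 21.2 and 17, at least 1.56-fold higher, and the renal form Slc34a1 gave 0.15 ± 0.26. The peptide transporter Slc15a2 and the monocarboxylate transporter Slc16a8 had like readings, 17.4 and 23.6 against 42.1 and 27.7 (0.75 ± 0.33), and 17.4 and 22.5 against 43.9 and 26.8 (0.79 ± 0.34), each highest in 16-week sample 1. Lactate transporter Slc16a1 read at most 3.3 and was not tested.

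The equilibrative nucleoside transporter Slc29a1 read 14.5 and 20.5 against 23.8 and 26.6 (0.55 ± 0.28), and its reduced probe set stood out in 16-week sample 2 alone, at 55.3 beside 12.1 in the other 16-week sample. Bile acid carriers did not separate the groups: the liver importer Slc10a1 gave -0.24 ± 0.49, the ileal importer Slc10a2 was under the floor in all samples and the basolateral exporter subunit Slc51a gave 0.02 ± 0.35. Slc10a6, which carries sulfated steroids, read 24.8 and 23.9 against 27.4 and 26.8 (0.15 ± 0.23). Fatty acid transport proteins gave -0.38 ± 0.54 for Slc27a4, 0.18 ± 0.31 for Slc27a5 and at least 1.10-fold higher for Slc27a1. Slc17a1, a phosphate and urate transporter grouped by its family number with the vesicular carriers, was at least 1.24-fold higher, with 16-week values of 14.8 and 15.3 just above the floor. Slc66a2, a flippase-related protein of endosomes, read 76.8 and 90.5 against 61.2 and 62.9 (-0.43 ± 0.24), without overlap.

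**Figure D4:**
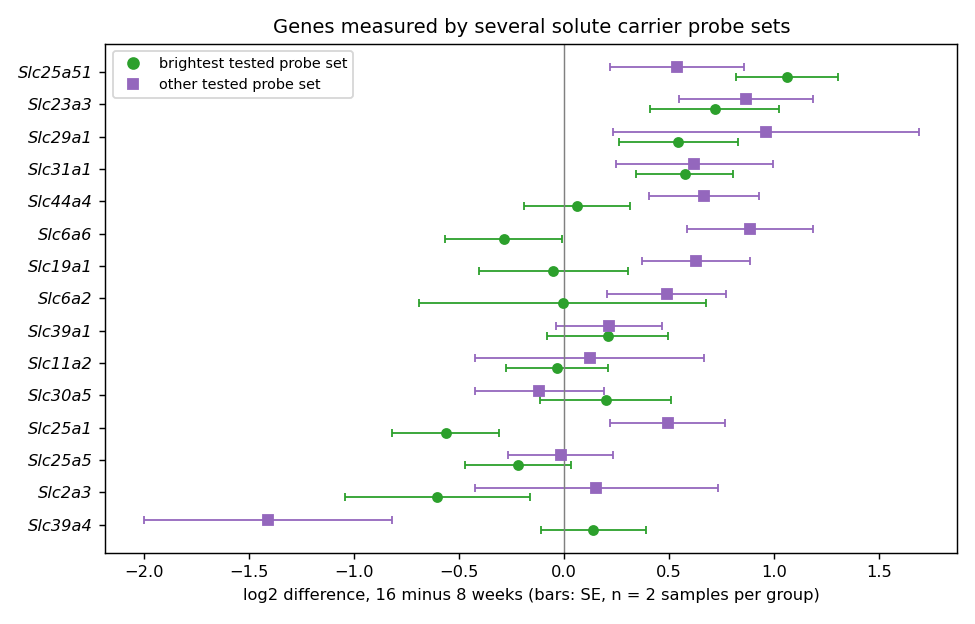
Log2 difference between 16 and 8 weeks with its SE (n = 2 samples per group) for the 15 genes with several tested carrier probe sets; the brightest tested probe set is green and the others purple. In 8 of the 15 the probe sets lie on opposite sides of 0.

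Of the 15 carrier genes with several tested probe sets, 8 had them on opposite sides of 0: Slc11a2, Slc19a1, Slc25a1, Slc2a3, Slc30a5, Slc39a4, Slc6a2 and Slc6a6. Slc23a3, Slc25a51, Slc29a1, Slc31a1, Slc39a1 and Slc44a4 lay above 0 on both, and Slc25a5 below 0 on both. The sign was fixed by the floor for both probe sets of Slc25a51 and for the dim one of Slc44a4. On a common median of the arrays both probe sets of Slc39a1 and the bright one of Slc44a4 lay below 0, and under quantile normalization the bright one of Slc25a5 lay above 0. A gene represented by its brightest tested probe set gave a median of 0.15 over the 113 genes, and by the mean of its tested probe sets 0.18.

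The 57 carrier probe sets that did not reach the filter included 41 under the floor on all 4 arrays. No probe set was tested for families 18, 26, 32, 33 and 46, which here hold the vesicular acetylcholine carrier Slc18a3, the sulfate carriers Slc26a1 and Slc26a2, the vesicular GABA carrier Slc32a1, the acetyl-CoA carrier Slc33a1 and the folate carrier Slc46a1 (named here because none was tested). A dim mouse probe set does not show that the Mastomys transcript was missing. A single probe set annotated to several carriers was left out by the rule.

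Pumps, channels, carbonic anhydrases, aquaporins and Slco carriers that work beside the solute carriers were read from a list of 68 names, of which 35 probe sets were tested. At 16 weeks 18 of them were higher and 17 lower. Their median was 0.01, and limma called 0 after adjustment, while 2 higher and 2 lower had an unadjusted p under 0.05 (5.71% each, beside 8.08% and 5.87% of all tested probe sets). The pumps were mostly lower, in 8 of 10 probe sets with a median of -0.33, and 2 were higher (20%, beside 56.3% of all tested probe sets). Lower without overlap were 5 (50%, beside 20.6%), and the single gene Atp2a3 gave several of them. The ER calcium pump Atp2a3 read 74 and 51.5 against 21.2 and 21.5 (-1.53 ± 0.28) and was lower on its 2 other probe sets, at -1.16 ± 0.33 and -0.30 ± 0.23. Basigin (Bsg), which escorts lactate transporters to the membrane, read 744 and 609 against 457 and 444 (-0.58 ± 0.25). On the higher side the water channel Aqp2 read 6 and 12.4 against 29.7 and 32.5 (1.34 ± 0.23, with the 6 raised to the floor). Carbonic anhydrase 4 (Car4) read 20.3 and 69.4 against 128 and 98.6 (1.58 ± 0.61, but 0.01 ± 0.40 on its other probe set). Cytosolic carbonic anhydrase Car2, which makes the bicarbonate that Slc4a2 exchanges, read 235 and 276 against 272 and 274 (0.10 ± 0.24).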

How the data were processed

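The deposited table holds, per the labels, 1 value for each probe set of Affymetrix mouse U74 arrays in each of 4 samples. The authors' deposited values are intensity on a linear scale, and their scaling was not given in the sources used here. Array means trimmed by 2% lay within 4.76% of their common mean, so the deposited scale was kept. Values under 12.15, the median over arrays of the 40th percentile, were set to it, and log2 was taken. Probe sets above it on at least 2 arrays were tested with limma 3.58.1 in R 4.3.3 (lmFit and eBayes, 2-sided, no covariate), with Benjamini-Hochberg adjustment over all 7883; 66 control probe sets were left out. Differences are 16 minus 8 weeks with limma's SE. "At least" marks a group wholly under the floor. Where only part of a group lay under it, the difference and its SE were computed from the raised value, which can make both too small. Members, lists and tests were chosen with earlier results of these data known. The rule for naming took up to 12 carriers per direction by unadjusted p without overlap, the 3 with the smallest p in each role, the 10 brightest, genes with several probe sets and 34 fixed carriers. Alternatives were quantile or median scaling, another floor, filter or variance trend, a replicate block and each sample left out. The code was tested on simulated data. Samples numbered alike did not deviate together over the tested probe sets (correlation -0.05). The labels give the numbers no meaning, and this single value from 2 samples per group cannot show that no pairing lay behind them. No 2 arrays held the same values, and their log2 correlations ran from 0.865 to 0.927. Median intensity was lower on both 8-week arrays, at 15.45 and 17.3, than on both 16-week arrays, at 19.2 and 18.9. The number of arrays limits the precision.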

Additional observations from a re-analysis of the deposited data

How the results depend on the processing

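Under every alternative limma called 0 carriers after adjustment. The 10 higher and 5 lower carriers with an unadjusted p under 0.05 became 4 and 10 on a common median of the arrays, where 64 were lower by sign. All tested probe sets turned the same way there, with 42% higher by sign beside 56.3% in the main setting. With the lower floor 18 were higher, and with the filter on all 4 arrays 4 were, where 54 were higher by sign. A variance trend gave 8 lower. The replicate block left 5 higher, against 10 without it, and changed no adjusted call. Alignment on the hybridisation controls, added after seeing the data, gave 34 higher and 2 lower, a median difference of 0.56 and 16 lower by sign. Of all tested probe sets 80.9% were higher by sign in that setting, with a median of 0.46. Counts over the whole array moved as well. Limma's unadjusted p was under 0.05 in either direction for 1100 probe sets in the main setting, 15 of them carriers. The count was 1324 (14 carriers) on a common median, 1299 (22) with the lower floor and 806 (8) above the floor on all arrays. It was 1145 (20) with a variance trend, 987 (11) with the replicate block and 1958 (36) aligned on the controls. With each sample left out in turn, 4 to 12 were higher and 1 to 5 lower; without 8-week sample 1 they were 4 and 3, and without 16-week sample 2 they were 9 and 1. In all, 765 of 826 values of the 75 named probe sets kept their sign and 61 in 31 probe sets did not. The cause was not tested. The variance trend and the replicate block cannot change a difference in this balanced design, so their values kept the sign by construction. So did the values, with a sample left out, of probe sets whose groups did not overlap. With each sample left out in turn, the median over all tested probe sets ran from -0.01 to 0.17, beside 0.14 to 0.28 for carriers. The number of arrays and dim signal limit what could be seen. Under quantile normalization the difference turned to 0.0205 for Slc4a2, -0.19 for Slc9a3r2, -0.00400 for Slc10a6, -0.0235 for Slc11a2 (dimmer probe set), 0.12 for Slc25a5 (brighter probe set), -0.11 for Slc34a1, 0.11 for Slc35b1, -0.15 for Slc51a. On a common median the difference turned to -0.20 for Slc9a3r2, -0.0660 for Slc10a6, -0.0624 for Slc11a2 (dimmer probe set), -0.12 for Slc30a3, -0.0743 for Slc34a1, -0.00700 for Slc39a1 (dimmer probe set), -0.0132 for Slc39a1 (brighter probe set), -0.0809 for Slc39a4 (brighter probe set), -0.16 for Slc44a4 (brighter probe set), -0.20 for Slc51a. With the lower floor the difference turned to 0.28 for Slc10a1, 0.0308 for Slc30a5 (dimmer probe set). Aligned on the controls the difference turned to 0.0819 for Slc22a2. With each sample left out in turn, the difference ran from -0.65 to 0.95 for Slc2a3 (dimmer probe set), -0.28 to 0.49 for Slc2a4, -0.00896 to 0.62 for Slc3a2, -0.54 to 0.28 for Slc4a2, -0.82 to 0.40 for Slc4a3, -0.95 to 0.93 for Slc6a2 (brighter probe set). It ran from -0.87 to 0.31 for Slc7a8, -0.27 to 0.32 for Slc9a3r2, -0.91 to 0.43 for Slc10a1, -0.13 to 0.0658 for Slc11a2 (brighter probe set), -0.57 to 0.81 for Slc11a2 (dimmer probe set), -0.0706 to 0.91 for Slc12a7. It ran from -0.41 to 0.31 for Slc19a1 (brighter probe set), -0.13 to 0.10 for Slc25a5 (dimmer probe set), -1.09 to 0.34 for Slc27a4, -0.12 to 0.48 for Slc27a5, -0.13 to 2.05 for Slc29a1 (dimmer probe set), -0.0656 to 0.27 for Slc30a3. It ran from -0.40 to 0.17 for Slc30a5 (dimmer probe set), -0.0809 to 0.48 for Slc30a5 (brighter probe set), -0.0598 to 0.35 for Slc34a1, -0.37 to 0.27 for Slc35b1, -0.0725 to 0.49 for Slc39a1 (brighter probe set), -0.0145 to 0.29 for Slc39a4 (brighter probe set). It ran from -0.61 to 0.37 for Slc44a1, -0.0814 to 0.21 for Slc44a4 (brighter probe set), -0.31 to 0.34 for Slc51a.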
